A study of Mus musculus with 15 samples.

Results

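Gut homing and tissue residency receptors are the adhesion molecules, chemokine receptors and retention molecules by which T cells reach the gut wall and stay in it. The 10 genes described here were chosen by name: the integrin genes Itga4, Itgb7, Itgae, Itga1 and Itgb1, the chemoattractant receptor genes Ccr9, Gpr15 and Cxcr6, and the surface molecule genes Cd69 and Cd44. They are 10 of the 34816 gene names on the array and are measured by 18 of its 55681 probes. All 10 passed the filter on low signal, which kept 26000 genes.

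The cells were CD4 T lymphocytes sorted by flow cytometry from small intestinal lamina propria leukocytes of male mice. The groups were a high-fat diet (HFD) for 10 days, HFD for 30 days, and control mice on normal chow, with 5 one-colour Agilent arrays each. The small amounts of RNA were amplified by a commercial kit procedure (SuperAmp) before Cy3 labelling. The labels name no strain and no age, and the control titles give no day, so days of HFD cannot be told apart from age or time in the experiment. Whether the 5 arrays of a group hold RNA of different mice is not stated. The p-values therefore speak only to the spread over these arrays, part or all of which may be technical.

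Integrins are pairs of an α and a β chain. Integrin α4β7, encoded by Itga4 and Itgb7, binds MAdCAM-1 on the venules of the gut, and αEβ7, encoded by Itgae and Itgb7, binds E-cadherin on epithelial cells. CCR9 responds to CCL25, a chemokine of the small intestinal epithelium, while GPR15 is best known for homing to the large intestine. Once in the tissue, CD69 keeps T cells from leaving by antagonising the egress receptor S1PR1, and CXCR6 binds the membrane-bound chemokine CXCL16.

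The probe sequences below are those whose values decide most of what follows. They are shown 5′ to 3′ as given with the array, with their mm9 positions, because a one-colour array reports only what hybridises to such a stretch. For Itgb1 and Itga1 the sequences of both probes are given, since the probes of each gene did not vary together. The capitals in the first Itgb1 probe mark 2 matches to the pattern AATCCNNNNTAN, which can encode the NPxY motif found in the cytoplasmic tails of β integrins, where talin and kindlins bind.
Gpr15, chr16:58717785-58717844, minus strand: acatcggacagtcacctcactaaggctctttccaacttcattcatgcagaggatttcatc
Itgae, chr11:72945236-72946221, plus strand: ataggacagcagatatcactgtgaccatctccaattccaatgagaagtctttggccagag
Itgb1 brighter probe, chr8:131250081-131255976, plus strand: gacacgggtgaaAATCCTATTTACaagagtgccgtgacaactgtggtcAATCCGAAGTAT
Itgb1 dimmer probe, chr8:131246349-131246408, plus strand: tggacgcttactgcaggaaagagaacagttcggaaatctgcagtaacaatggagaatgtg
Itga1 brighter probe, chr13:115756765-115758419, minus strand: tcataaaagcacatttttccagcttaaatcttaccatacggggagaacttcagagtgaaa
Itga1 dimmer probe, chr13:115821387-115825525, minus strand: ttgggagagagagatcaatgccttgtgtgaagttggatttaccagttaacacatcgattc

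Probes of 60 bases that span more than 60 bases of genome cross an intron. This is so for the Itgae probe, which spans 986 bases, for the brighter Itgb1 probe, which spans 5896 bases, and for both Itga1 probes, which span 1655 and 4139 bases. It is also so for the dimmer Itga4 probe, whose sequence is not shown and which spans 1131 bases. The pattern AATCCNNNNTAN, searched on both strands, occurs in 280 of the 55681 probes (0.503%) and in 1 probe of the 10 genes. A match is a description of the letters of the probe.

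Values are log2 of the processed spot signal minus the 75th percentile of the array, so 0 lies at that percentile and 1 unit is a doubling of signal. A probe is called well above background where the scanner software marked it so on that array. Each gene is read from the probe with the highest mean signal, and other probes are described separately. Probes differ in how well they hybridise, so no level of 1 gene is set against that of another. In these bulk samples, fewer cells of a type and less RNA per cell cannot be told apart.

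The arrays differed in the share of detected spots, for reasons that were not tested. The percentage of spots the software marked as well above background was 55.3% to 61.9% at HFD day 10, 45.2% to 59.5% at HFD day 30 and 50.9% to 82.0% in control, with the highest value in control replicate 1. Slide 1 held the 5 controls and HFD day 10 replicates 1 to 3. Slide 2 held HFD day 10 replicates 4 and 5 and the 5 HFD day 30 arrays. HFD day 30 and control therefore share no slide, and slide and diet cannot be told apart between them. Of the 10 CD4 T cell markers, 9 were well above background on all 15 arrays and Cd247 on 14. Markers of other cells were also present: Gzma, Gzmb, Prf1, Nkg7 and Cd160 of cytotoxic cells, Jchain and Pax5 of B-lineage cells, Csf1r and Itgam of myeloid cells, and Pigr and Krt18 of epithelium on all 15 arrays. Cd8b1 was well above background on 2 arrays, Itgax on 1, and Ms4a1 and Cdh5 on 0.

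None of the receptor genes differed between groups past the test threshold. Of the 10 genes, 0 had an adjusted p under 0.05 in HFD day 10 against control, HFD day 30 against control or HFD day 30 against HFD day 10 (limma, Benjamini-Hochberg), and 0% of the 26000 genes did in each comparison. The share of all genes with an unadjusted p under 0.05 in these comparisons was 2.59%, 5.14% and 4.1%. At an unadjusted p under 0.05, 1 of the 10 was lower at HFD day 10 than in control (1.7% of all genes were lower by this measure), and 1 was lower at HFD day 30 than in control (2.67% of all genes). This was Gpr15 both times. Between HFD day 30 and HFD day 10 the count was 0 of 10. By group means, 7 of the 10 were higher at HFD day 10 than in control (49.9% of all genes), 6 at HFD day 30 than in control (50.2%) and 7 at HFD day 30 than at HFD day 10 (53%). The median difference of the 10 genes was 0.24, 0.58 and 0.32 log2 units in these comparisons, against -0.0016, 0.0049 and 0.056 for all genes. Without control replicate 1 it was -0.24 at day 10 (2 of 10 higher) and 0.022 at day 30 (5 of 10 higher), and without HFD day 10 replicate 3 the last was -0.076 (5 of 10 higher). With the share of detected spots as a covariate the 3 medians were -0.25, -0.91 and -0.36, with 2, 2 and 1 of the 10 genes higher. The first 2 comparisons share the control arrays, and all 3 pairs of comparisons share a group. On each of the 18 probes the values of every pair of groups overlapped (0 of 10 genes without overlap, against 0.419%, 0.604% and 0.57% of all genes in the 3 comparisons).

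Several of these differences took another sign once slide was allowed for. With slide as a block, the median difference of the 10 genes was -0.091 at HFD day 10 against control, -0.47 at HFD day 30 against control and -0.78 at HFD day 30 against HFD day 10, with 5, 3 and 3 of the 10 genes higher. With this block, Gpr15 differed from control by -3.69 at day 10 and -4.41 at day 30. HFD day 30 and control share no slide, so every day 30 difference from control with the block is joined through the HFD day 10 arrays. Slide 2 holds 2 of those arrays, and the day 30 estimate is not independent of the day 10 one. Within slide 1, HFD day 10 minus control turned to -0.21 for Cd69 and -0.31 for Cd44. Within slide 2, which holds 2 HFD day 10 arrays, HFD day 30 minus HFD day 10 turned to -1.18 for Itgae, -1.16 for Itga1, -0.71 for Gpr15 and -0.00048 for Cd69. The slide block turned HFD day 30 minus control to -0.11 for Itga1, -0.74 for Itgb1 and -0.21 for Cd69.

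**Figure D1:**
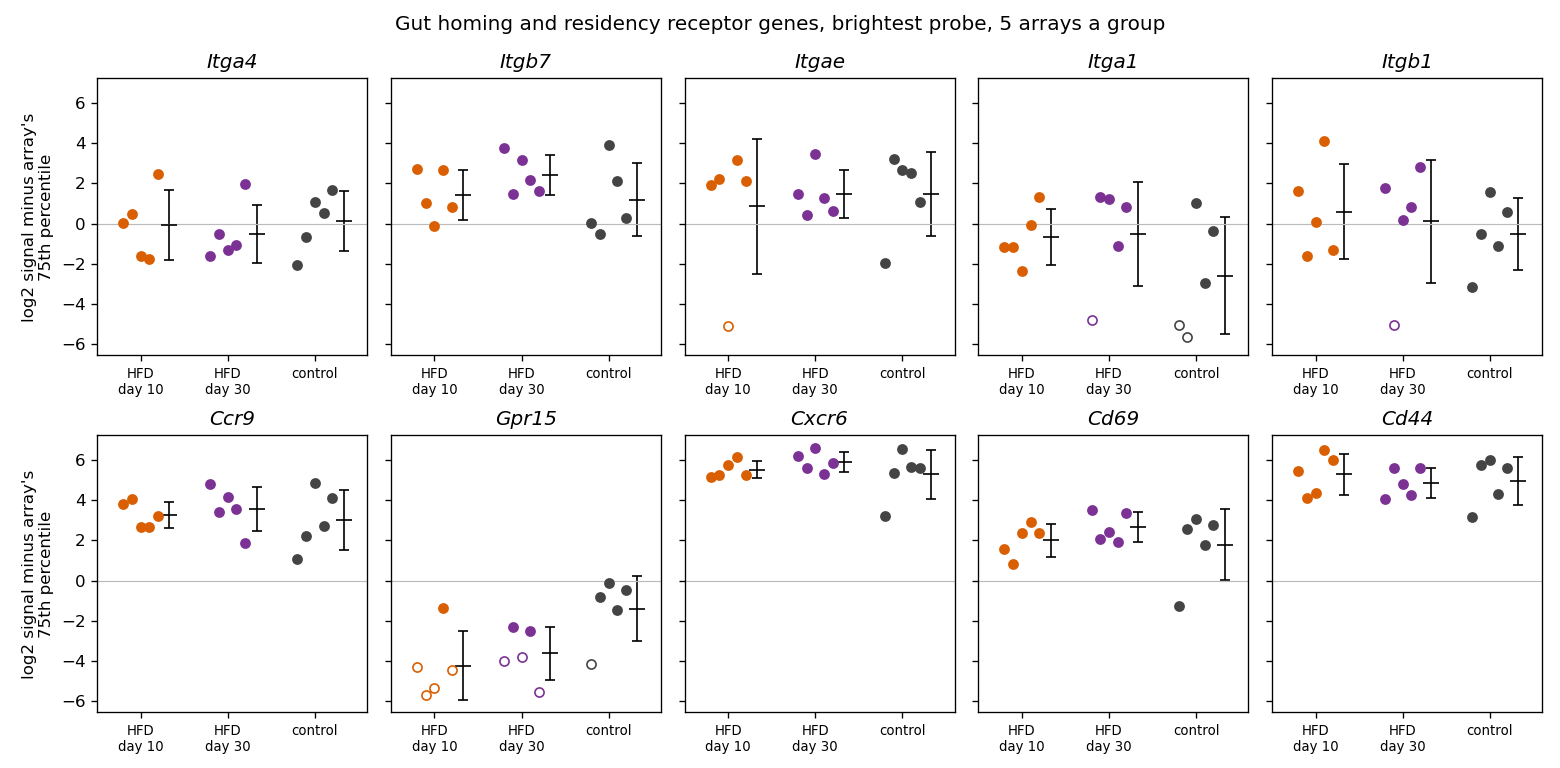
Values of the brightest probe of each receptor gene on every array, as log2 signal minus the 75th percentile of the array, for HFD day 10, HFD day 30 and control. Filled points are well above background and open points are not, and bars show the mean and SD of 5 arrays. Gpr15 is the gene whose HFD points lie mostly below the control points, and its control replicate 1 lies among them at -4.16.

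Gpr15 was dim and lower in both HFD groups than in control on most arrays. It measured -4.30, -5.68, -5.33, -1.36 and -4.47 at HFD day 10. It measured -3.98, -2.31, -3.79, -2.50 and -5.54 at HFD day 30. In control it measured -4.16, -0.83, -0.12, -1.47 and -0.47. Control replicate 1 lay inside the range of the HFD arrays, and the other 4 controls lay above every HFD array except HFD day 10 replicate 4, at -1.36, which was above control replicate 4. The probe was well above background on 1 of 5 arrays at HFD day 10, on 2 of 5 at HFD day 30 and on 4 of 5 in control. It passed the filter on low signal, at least 5 of 15 arrays, mainly through its control arrays. A lower value in HFD was therefore favoured by the filter, which bears on the intervals, p-values and rank that follow.

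Gpr15 averaged -4.23 ± 1.70 at HFD day 10 against -1.41 ± 1.62 in control (SD, n = 5 each), a difference of -2.82 (SE 0.97). The 95% confidence interval of that difference ran from -4.88 to -0.75 (limma, unadjusted p = 0.0106, adjusted p = 1.00 over 26000 genes). By unadjusted p it stood at rank 159 of 26000. At HFD day 30 it averaged -3.62 ± 1.31, a difference from control of -2.21 (SE 0.97, 95% interval -4.28 to -0.15, limma unadjusted p = 0.0372, adjusted p = 0.927). HFD day 30 minus HFD day 10 was 0.60 (95% interval -1.46 to 2.67). Most HFD values of Gpr15 are not well above background, so the size of the difference depends on how such values are handled. With values under the lowest detected signal of their array raised to it, the differences from control were -2.10 at day 10 and -1.53 at day 30. Without control replicate 1, the day 10 difference was -3.50. In the deposited value table, which holds only values of spots well above background, they were -0.30 and -0.89, resting on 1 array at HFD day 10, 2 at HFD day 30 and 4 in control.

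**Figure D2:**
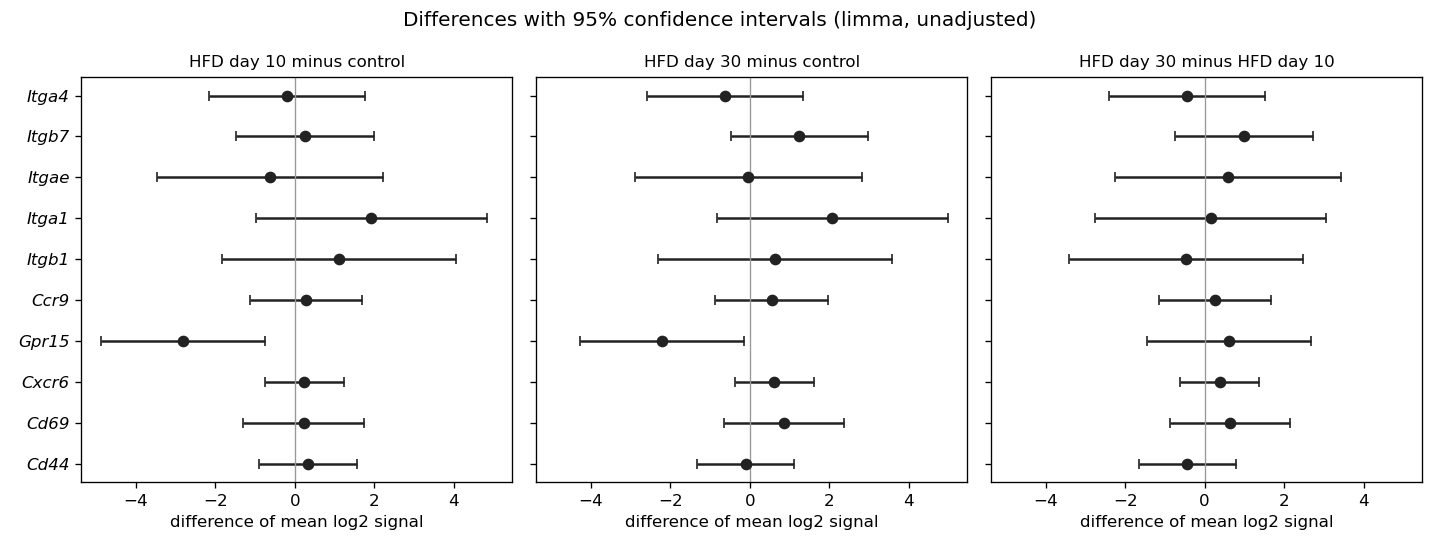
Differences of mean log2 signal with 95% confidence intervals (limma, unadjusted) for the 10 receptor genes in the 3 comparisons, each panel giving the first-named group minus the other. The Gpr15 interval lies below 0 in both comparisons with control, and the other intervals include 0.

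Cxcr6 had the narrowest spread of the 10 genes and was well above background on all 15 arrays. It measured 5.16, 5.27, 5.75, 6.17 and 5.27 at HFD day 10 and 6.21, 5.59, 6.60, 5.30 and 5.83 at HFD day 30. The control arrays gave 3.23, 5.35, 6.56, 5.68 and 5.62. Apart from control replicate 1, all values lay between 5.16 and 6.60, and the 3 groups overlapped. The mean was 5.52 ± 0.43 at HFD day 10, 5.90 ± 0.51 at HFD day 30 and 5.29 ± 1.24 in control (SD, n = 5 each). The differences from control were 0.24 (95% interval -0.76 to 1.24) at day 10 and 0.62 (-0.38 to 1.62) at day 30. Without control replicate 1 they were -0.28 and 0.10. Its spread within groups, an SD of 0.81, was at the 21.5th percentile of all genes, and its mean signal was at the 96.4th percentile.

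Cd69, the retention molecule that is also an early activation marker, was well above background on all 15 arrays. It measured 1.55, 0.83, 2.38, 2.93 and 2.38 at HFD day 10 and 3.50, 2.08, 2.40, 1.91 and 3.38 at HFD day 30. In control it measured -1.27, 2.57, 3.08, 1.79 and 2.79. Control replicate 1 was the lowest of the 15 arrays, as it was for Cxcr6. The differences from control were 0.22 (95% interval -1.29 to 1.74) at day 10 and 0.86 (-0.65 to 2.38) at day 30. Without control replicate 1 they were -0.54 and 0.098. Of the 45 pairs among the 10 genes, Cxcr6 and Cd69 had the highest correlation over the 15 arrays, with Pearson's r of 0.87 and Spearman's rho of 0.77 (permutation p adjusted over 45 pairs 0.0265 and 0.0594). Without the 2 arrays farthest from the median of Cxcr6, r was 0.72, and it was 0.92 within slide 1 and 0.48 within slide 2.

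Both genes had lower values on arrays with a higher share of detected spots, a trend not particular to them. In a fit of that share within groups over all genes, Cxcr6 was lower by 0.98 log2 units for each 10 percentage points (SE 0.11, limma adjusted p = 0.000247) and Cd69 by 1.32 (SE 0.25, limma adjusted p = 0.00329). These were 2 of the 10 genes past the threshold, against 8.98% of all genes. The slope was below 0 for all 10 genes, where the median slope of all genes was 0.16. It was steepest for Itga1 (-1.61, SE 0.72) and Itgb1 (-1.55, SE 0.74), which did not pass. Control replicate 1 had the highest share, 82.0%. Without that array both calls were lost, with slopes of -0.79 for Cxcr6 (limma adjusted p = 0.0517) and -0.84 for Cd69 (limma adjusted p = 0.299), and 7 genes of all tested passed. Slopes were then still below 0 for 9 of the 10 genes. With the share as a covariate, the differences from control turned to -0.29 and -0.61 for Cxcr6 and to -0.48 and -0.78 for Cd69, at day 10 and day 30. The part of the share in the group differences was not tested further.

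**Figure D3:**
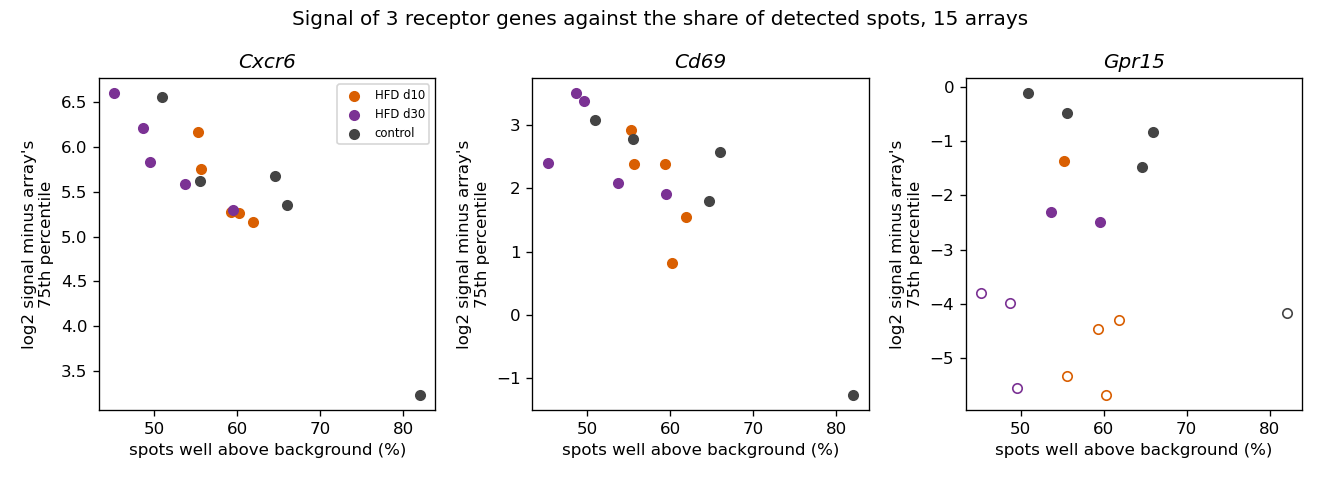
Log2 signal of Cxcr6, Cd69 and Gpr15 against the percentage of spots well above background on each of the 15 arrays. Filled points are well above background. Control replicate 1 stands apart at 82.0%, with the lowest Cxcr6 and Cd69 values. The 4 other controls, at shares of 50.9% to 66.0%, have high Gpr15 values. Within groups, the slope of Gpr15 on the share was -0.89 log2 units for each 10 percentage points (SE 0.54).

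Ccr9, the small intestinal homing receptor, was detected by its brighter probe on every array. That probe measured 3.82, 4.08, 2.68, 2.67 and 3.19 at HFD day 10 and 4.80, 3.40, 4.15, 3.56 and 1.86 at HFD day 30. Control values were 1.09, 2.22, 4.87, 2.73 and 4.12. The HFD day 10 values lay wholly inside the control range. The differences from control were 0.28 (95% interval -1.13 to 1.69) at day 10 and 0.55 (-0.86 to 1.96) at day 30. Without control replicate 1 they were -0.20 and 0.069. A dimmer Ccr9 probe was well above background on 1 array at HFD day 10, 3 at HFD day 30 and 4 in control. Its day 10 difference from control was -2.43 (SE 1.16, limma unadjusted p = 0.0521), opposite in sign to that of the brighter probe. It lies at chr9:123680935-123680994 and position 4650 of its annotated transcript, and the brighter at chr9:123690334-123690393 and position 2082. Both are on the plus strand, so these positions are not of 1 transcript, and the 2 probes need not read the same RNA.

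The integrin subunits gave differences whose 95% intervals all included 0. Itgb7, the β chain shared by α4β7 and αEβ7, measured 2.70, 1.02, -0.11, 2.69 and 0.85 at HFD day 10 and 3.75, 1.45, 3.14, 2.17 and 1.60 at HFD day 30. The controls gave 0.042, -0.49, 3.90, 2.14 and 0.30. Every HFD day 30 value lay above 3 of the 5 controls, and control replicate 3 lay above every HFD day 30 value. The differences from control were 0.25 (95% interval -1.48 to 1.98) at day 10 and 1.25 (-0.48 to 2.97) at day 30, and HFD day 30 minus HFD day 10 was 0.99 (-0.73 to 2.72). Itga4, the α chain of α4β7, ranged from -2.04 to 2.46 over the arrays, with differences from control of -0.20 (95% interval -2.16 to 1.76) at day 10 and -0.63 (-2.59 to 1.33) at day 30. Over the 15 arrays, Pearson's r of Itga4 and Itgb7 was -0.069 and Spearman's rho 0.0036 (permutation p adjusted over 45 pairs 0.86 and 0.995). Within slides it had opposite signs, 0.52 on slide 1 and -0.80 on slide 2. A second, dimmer Itga4 probe was well above background on 3 arrays at HFD day 10, 1 at HFD day 30 and 3 in control, with differences from control of -1.20 (SE 1.22) and -1.16 (SE 1.22).

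Itgae, the αE chain also known as CD103, was well above background on 14 of 15 arrays. It measured 1.91, 2.23, -5.08, 3.15 and 2.13 at HFD day 10 and 1.49, 0.45, 3.45, 1.27 and 0.62 at HFD day 30. In control it measured -1.98, 3.19, 2.68, 2.49 and 1.05. HFD day 10 replicate 3, at -5.08, was not well above background and lay below the other 14 arrays. HFD day 10 minus control was -0.62 (95% interval -3.47 to 2.23) with that array and 0.86 without it. HFD day 30 minus control was -0.032 (-2.88 to 2.82). CD103 is also carried by intraepithelial lymphocytes and some dendritic cells. The log2 of the summed signal was taken for the 8 CD8, NK and cytotoxic cell markers on the array. It ran from 6.53 to 7.42 at HFD day 10, 6.37 to 7.24 at HFD day 30 and 5.38 to 7.87 in control. Of the 8 markers, 5 were well above background on all 15 arrays. Gzmb was the brightest, and such a sum leans on its brightest marker. The part of such cells in the Itgae values was not tested.

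Itga1 and Itgb1 encode the collagen-binding integrin α1β1, also called VLA-1, a molecule of tissue-resident T cells. The brighter Itga1 probe measured -1.14, -1.14, -2.35, -0.048 and 1.34 at HFD day 10 and -4.80, 1.31, 1.20, -1.10 and 0.81 at HFD day 30. Control values were -5.07, -5.63, 1.04, -2.95 and -0.35. It was well above background on 5 arrays at HFD day 10, 4 at HFD day 30 and 3 in control, and its differences from control were 1.92 (95% interval -0.98 to 4.83) at day 10 and 2.08 (-0.83 to 4.98) at day 30. The dimmer Itga1 probe was well above background on all 15 arrays, kept between -2.97 and -0.77, and had differences of -0.33 (SE 0.58) at day 10 and 0.068 (SE 0.58) at day 30.

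The brighter Itgb1 probe measured 1.62, -1.61, 0.098, 4.12 and -1.31 at HFD day 10 and 1.79, -5.04, 0.19, 0.80 and 2.83 at HFD day 30. The controls gave -3.15, -0.50, 1.59, -1.11 and 0.58. The dimmer probe measured -0.45, 1.57, -1.14, -6.55 and 0.76 at HFD day 10, -5.66, 1.03, -5.16, -0.22 and -5.98 at HFD day 30, and 0.62, -1.44, -6.25, 0.76 and 1.89 in control. The dimmer probe was well above background on 4 arrays at HFD day 10, 2 at HFD day 30 and 4 in control, and both probes were well above background together on 9 arrays. The values of the dimmer probe on the other arrays, its lowest among them, are not a measured level. Over the 15 arrays their Pearson's r was -0.71 and Spearman's rho -0.73 (permutation p adjusted over 11 probe pairs 0.0115 and 0.0157), and r was -0.67 without the 2 arrays farthest from the median of the brighter probe. It was -0.53 within slide 1 and -0.82 within slide 2, and -0.75 with values under the lowest detected signal of their array raised to it. All these r values include arrays on which 1 of the probes was not well above background. No r was computed over the 9 arrays alone, so opposite measured levels are not shown. Differences from control were 1.10 and 0.63 for the brighter probe but -0.28 and -2.31 for the dimmer one, at day 10 and day 30. With values raised in this way those of the dimmer probe were -0.29 and -1.39.

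**Figure D4:**
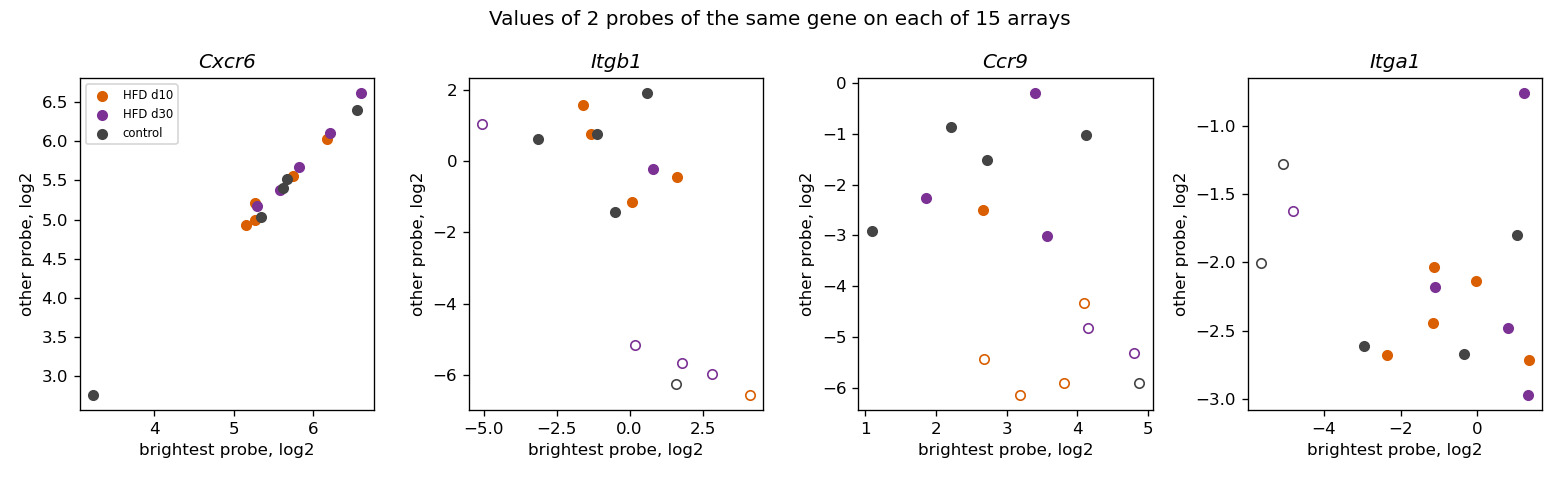
Log2 values of the other probe against the brightest probe of Cxcr6, Itgb1, Ccr9 and Itga1 on each of 15 arrays, with open points where either probe is not well above background. The Cxcr6 probes rise together, and the Itgb1 probes run in opposite directions over all 15 arrays, open points included.

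Of 11 probe pairs in 6 genes, only that of Cxcr6 rose together past the threshold, with r of 0.997 (permutation p 1e-05, the smallest 100000 permutations can give), and these probes share 50 of their 60 bases. Besides that of Itgb1, the other r values were -0.43 for Ccr9, -0.25 for Itga1, 0.038 for Itga4 and -0.31 to 0.30 for the 6 pairs of Cd44. Cd44, the hyaluronan receptor of activated and memory T cells, had 4 probes. Its brightest probe ranged from 3.14 to 6.48 and differed from control by 0.33 (95% interval -0.89 to 1.56) at day 10 and -0.098 (-1.32 to 1.13) at day 30. The second Cd44 probe, also well above background on all 15 arrays, differed by 0.16 and 0.34. The 2 dim Cd44 probes lie at positions 1777 and 1965 of the annotated transcript, upstream of the bright ones at 2614 and 5494, and were well above background on 9 and 12 arrays. Their differences from control were 0.80 (SE 1.88) and 1.64 (SE 1.29) at day 10 and 1.08 (SE 1.88) and 0.38 (SE 1.29) at day 30, in that order of probes.

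The genes whose values ran most like those of a receptor gene over the 15 arrays were sought among 6313 genes detected on every array. For Cxcr6 they were Crem (r of 0.98) and Got1 (0.98), for Cd69 Celf1 (0.95) and ND1 (0.93), and for Ccr9 Mtf2 (0.90) and Vopp1 (0.90). For Cd44 they were Grina (0.92) and Cd27 (0.84), for Itgb7 Sbf1 (0.85) and Zfp442 (0.84), and for Itga4 Jarid2 (0.79) and Tmub2 (0.78). These are the highest of many values, and they carry no test. They come from the same arrays as the receptor gene, with the same shares of detected spots.

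Genes that work with these receptors were described by lists, and 0 genes of any list passed an adjusted p of 0.05. Of all genes, 49.9% were higher at HFD day 10 than in control and 50.2% at HFD day 30 than in control. Between the HFD groups, 53% were higher at HFD day 30. Values in the following paragraphs are means ± SD of 5 arrays. Where a gene was not well above background on several arrays of a group, its mean there includes values without a measured level. The list counts were not computed with slide as a block or with the share of detected spots as a covariate. For the 10 receptor genes, these settings turned the median of HFD day 30 minus HFD day 10 to -0.78 and -0.36. Of the other chemokine receptors, 1 of 8 tested was higher at HFD day 10 than in control, with a median difference of -0.90, 6 of 8 were higher at HFD day 30 than in control (median 0.20), and 8 of 8 were higher at HFD day 30 than at HFD day 10 (median 1.31). Ccr8, a receptor of skin-homing and regulatory T cells, averaged -3.34 ± 1.91 at HFD day 10 against 0.26 ± 2.29 in control, and was well above background on 2 and 5 arrays (limma, difference -3.60, unadjusted p = 0.0175, adjusted p = 1.00). Ccr10, a receptor for CCL27 and CCL28, averaged -4.11 ± 1.51 against -1.22 ± 0.69, with the same detection counts (limma, difference -2.89, unadjusted p = 0.0115, adjusted p = 1.00). Between HFD day 30 and HFD day 10, Cxcr4 differed by 2.77 (SE 1.24) and Ccr2 by 1.34 (SE 0.69).

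Of the genes of egress and lymph node homing, 3 of 5 tested were higher at HFD day 10 than in control and 4 of 5 at HFD day 30. Ccr7, which guides T cells into lymphatics and lymph nodes, was well above background on 4 arrays at HFD day 30, 2 at HFD day 10 and 1 in control. It passed the filter on low signal mainly through its HFD day 30 arrays, so a difference was favoured by the filter. Its mean was -1.65 ± 1.56 at HFD day 30 against -4.40 ± 0.45 in control, where 4 of 5 values are not a measured level. With values raised to the lowest detected signal the difference was 2.51 (limma adjusted p = 0.878). S1pr1, the egress receptor that CD69 antagonises, averaged 0.77 ± 0.73 at HFD day 10 against -0.26 ± 0.87 in control. Klf2, a transcription factor that drives S1pr1, averaged -1.39 ± 2.84 at HFD day 30 against 0.31 ± 1.75 in control.

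Residency regulators and signature genes were higher than in control for 8 of 12 tested at HFD day 10 (median 0.35) and 10 of 12 at HFD day 30 (median 0.55). Between the HFD groups, 9 of 12 were higher at HFD day 30 than at HFD day 10 (median 0.35). Such counts were not particular to this list. Of the 10 CD4 T cell markers, 7 were higher than in control at HFD day 10 (median 0.12) and 9 at HFD day 30 (median 0.37). Between the HFD groups, 8 of these 10 markers were higher at HFD day 30 (median 0.35). Rgs1, a regulator of chemokine receptor signalling that is high in gut T cells, averaged 8.08 ± 0.49 at HFD day 30 against 7.35 ± 0.93 in control. Crtam, an adhesion molecule of activated and cytotoxic lymphocytes, averaged -2.59 ± 2.10 at HFD day 10 against -0.065 ± 2.84 in control. Of the retinoic acid and TGF-β inputs, which induce CCR9, α4β7 and CD103, 1 of 6 tested was higher at HFD day 10 than in control, 4 of 6 at HFD day 30 than in control and 6 of 6 at HFD day 30 than at HFD day 10. Tgfbr2, a subunit of the TGF-β receptor, averaged 5.05 ± 0.54 at HFD day 30 against 4.09 ± 1.49 in control.

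In the integrin activation list, 3 of 8 were higher than in control at each time, and 4 of 8 at HFD day 30 than at HFD day 10. Fermt3 encodes kindlin-3, which binds β integrin tails. It averaged -3.83 ± 1.85 at HFD day 30 against 0.70 ± 1.15 at HFD day 10 (limma, difference -4.53, SE 1.23, unadjusted p = 0.00208, adjusted p = 0.962), and was well above background on 2 and 5 arrays. Rasgrp2, an exchange factor that activates Rap1, averaged 1.18 ± 0.48 at HFD day 30 against -0.23 ± 0.53 at HFD day 10. Other T cell integrins were higher than in control for 5 of 7 tested at HFD day 10 and 3 of 7 at HFD day 30, with Itgb3 at 2.63 ± 0.62 at HFD day 10 against 1.57 ± 1.46 in control.

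Ligands of the receptors come mostly from other cells, and 5 of 9 were detected well enough to test, of which 2 were higher than in control at each time and 4 at HFD day 30 than at HFD day 10. Cxcl16, the ligand of CXCR6, averaged 0.64 ± 1.21 at HFD day 30 against -2.27 ± 2.23 in control (limma, difference 2.91, SE 1.31, unadjusted p = 0.0411, adjusted p = 0.927). Vcam1, which α4β1 binds, averaged -4.96 ± 1.33 at HFD day 30 against -2.10 ± 2.06 at HFD day 10. With values raised to the lowest detected signal of their array, its difference was -1.62. The log2 of the summed signal was also taken for the 9 macrophage and dendritic cell markers on the array. It ran from 8.52 to 9.15 at HFD day 10, 8.63 to 9.81 at HFD day 30 and 8.57 to 8.90 in control, with Itgam the brightest. For the 9 epithelial markers it ran from 7.79 to 8.45 at HFD day 10, 7.95 to 9.14 at HFD day 30 and 7.84 to 8.32 in control, with Pigr the brightest. On all 15 arrays, 2 markers of each list were well above background. The part of such cells in these values was not tested.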

How the data were processed

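The 10 genes were given by name, and they, the gene lists and the tests were chosen with earlier results of these data known. Per the file headers, the scanner files hold linear intensity values from Agilent Feature Extraction 10.7.3.1 (protocol GE1_107_Sep09, grid mm9), background subtracted within each array. The deposited value table holds log2 values from the authors, made by steps that the sources used here do not give.

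Of 55681 probes on non-control spots, none was saturated (0 spots). Outlier flags removed 46 probe values, and 1 unreadable spot line was dropped. Probes took RefSeq symbols where a match was found (29574 probes), otherwise the array's name. Log2 intensity minus the array's 75th percentile was used. Spots of a probe were averaged, the brightest probe stood for its gene, and genes well above background on at least 5 of 15 arrays were tested with limma 3.58.1 in R 4.3.3 (lmFit, eBayes with trend, two-sided, Benjamini-Hochberg, threshold 0.05), all 15 arrays sharing the spread. A group rests on 5 arrays, which limits precision. The fit was tested on simulated data. Depth is not defined for arrays.

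The text names the 10 genes with all probes and, of each pathway list, some of the genes with the 2 smallest unadjusted p-values in a comparison; the likeness list holds the 2 highest Pearson correlations. Alternatives were normexp background correction (offset 50), quantile normalization, other scaling, the deposited table, other filters, raised dim values, the mean of probes, slide, detection share, replicate number, the 2 groups alone, and each array left out. The fits within a slide, and raised dim values for probe pairs, single probes and pathway genes, were added after the data were seen. The replicate numbers of the labels did not pair the samples.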

Additional observations from a re-analysis of the deposited data

Results flagged for a closer look

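Itgae in HFD day 10 replicate 3 measured -5.08, and the nearest of the other 4 HFD day 10 arrays measured 1.91. The gap was 0.849 of the range of the group. Of 30 groups of 5 values checked in this way, 1 was singled out, and chance singles out about 1 in 20. The spot was not well above background on that array, and the cause was not tested.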

How the results depend on the processing

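Of the 10 genes, 0 were called under every alternative run. Genes called over all genes stayed at 0 in each comparison except that the slide block called 1 gene in HFD day 30 against control (Vkorc1l1), and leaving out 1 array gave 0 to 1 in HFD day 10 against control (1 without HFD day 30 replicate 4), 0 to 2 in HFD day 30 against control and 0 to 2 in HFD day 30 against HFD day 10 (2 in both without HFD day 10 replicate 4). In the fit of all probes, counts were 0, 0 and 1 (Homer1). With the replicate block, the differences of the 10 genes were the same and 0 genes were called; same-numbered arrays correlated between -0.13 and 0.15, and 0, 2 and 1 of 5 arrays correlated best with their own number. Scaling over probes detected on all arrays moved the median of all genes to -0.38 in HFD day 30 against control and -0.24 in HFD day 30 against HFD day 10, and the deposited table to -0.23 and -0.13. Normexp moved it to 0.11 in the last of these. Unadjusted p under 0.05 in HFD day 10 against control was reached by 673 genes, against 1134 with the share covariate, 1063 without the filter, 1037 in the deposited table and 223 when only genes detected on all arrays were tested. The last gave 697 in HFD day 30 against control, where the main count was 1337 and leaving out control replicate 3 gave 2266. It gave 374 in HFD day 30 against HFD day 10, where the main count was 1067.

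Apart from the deposited table, Gpr15 was lower than control in 26 of 26 alternatives at day 10 (-3.69 to -1.08) and 25 of 25 at day 30 (-4.41 to -0.80). These counts are not separate evidence, since all alternatives reuse the same arrays. Some cannot change the difference at all, such as the replicate block, the mean of probes, or leaving out an array of the other HFD group. The deposited table holds Gpr15 values for 1 array at HFD day 10, 2 at HFD day 30 and 4 in control, with differences of -0.30 and -0.89. Other differences changed sign. In HFD day 10 against control these were Itga4 under quantile normalization (0.25), Itgae in the deposited table (0.61), Ccr9 with the mean of probes (-1.07), Cd69 (-0.21) and Cd44 (-0.31) with the slide block and within slide 1, and with the share covariate Itgb7 (-0.18), Ccr9 (-0.22), Cxcr6 (-0.29), Cd69 (-0.48) and Cd44 (-0.069). In HFD day 30 against control they were Itgae under quantile normalization (0.13), Ccr9 (-0.079) and Cxcr6 (-0.056) in the deposited table, Itgb1 (-0.84), Ccr9 (-0.070) and Cd44 (0.43) with the mean of probes, Itga1 (-0.11), Itgb1 (-0.74) and Cd69 (-0.21) with the slide block, and with the share covariate Itgb1 (-1.30), Ccr9 (-0.61), Cxcr6 (-0.61) and Cd69 (-0.78). In HFD day 30 against HFD day 10 they were Itgae with normexp (-0.080), Ccr9 under quantile normalization (-0.033), Itga1 (-0.14) and Ccr9 (-0.027) with scaling over detected probes, Itgae (-0.95), Itgb1 (0.50), Ccr9 (-0.19), Gpr15 (-0.59) and Cxcr6 (-0.094) in the deposited table, Itgae (-1.18), Itga1 (-1.16), Gpr15 (-0.71) and Cd69 (-0.00048) with the slide block and within slide 2, and with the share covariate Itgae (-0.083), Itga1 (-0.998), Ccr9 (-0.40), Gpr15 (-0.031), Cxcr6 (-0.32) and Cd69 (-0.30).

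Leaving out 1 array changed signs too. In HFD day 10 against control the ranges were -0.83 to 0.22 for Itga4, -0.17 to 0.93 for Itgb7, -1.49 to 0.86 for Itgae, -0.20 to 0.75 for Ccr9, -0.28 to 0.56 for Cxcr6, -0.54 to 0.54 for Cd69 and -0.12 to 0.62 for Cd44. Those of Itgb7, Ccr9, Cxcr6, Cd69 and Cd44 were below 0 without control replicate 1. In HFD day 30 against control they were -0.90 to 0.39 for Itgae, -0.047 to 1.92 for Itgb1 and -0.55 to 0.16 for Cd44, while Ccr9 (0.069 to 1.01), Cxcr6 (0.10 to 0.94) and Cd69 (0.098 to 1.18) were lowest without control replicate 1. In HFD day 30 against HFD day 10 they were -1.05 to 0.20 for Itga4, -0.90 to 1.16 for Itgae, -0.30 to 1.23 for Itga1, -1.15 to 0.82 for Itgb1 and -0.044 to 0.69 for Ccr9. The causes were not tested.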
